A study of Mus musculus with 12 samples.

Results

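The 9 genes described here encode chromatin proteins that package DNA without being part of the standard nucleosome. They are Hmgb1, Hmgb2 and Hmgb3 of the HMG-box family, Hmgn1 and Hmgn2 of the nucleosome-binding HMGN family, the linker histone genes H1f0 and H1fx, and the H2A.Z genes H2afz and H2afv. They were read as 9 of the 31053 gene rows of a single-cell RNA sequencing table of mouse striatum. These genes were chosen by their measured values in these same libraries, by age, by cell class and by cycling state, so the differences between those groups are given below as descriptions and carry no test. The cells came from the striatum of wild type mice of a strain labelled mixed and were bead-sorted for the astrocyte antigen ACSA2. No group was treated. According to the methods of the study, which may describe other libraries, each preparation pooled several male mice, so a library is a pool and not an animal. There were 2 libraries from early postnatal mice and 2 from mice aged 3 months (3m). For both postnatal libraries the labels gave 2 ages, day 7 in the title and day 3 in the age tag of replicate 1, and day 3 in the title and day 7 in the age tag of replicate 2. Both were kept as 1 postnatal group, and the ages within it cannot be told apart from the replicates. The study names postnatal day 3 for its early striatal preparations, but these may be other libraries, so the labels are not settled by it.

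HMG-box proteins bind the minor groove and bend DNA, and Hmgb2 and Hmgb3 are known for their high levels in dividing and progenitor cells, whereas Hmgb1 is made by most cell types. HMGN proteins bind the nucleosome itself and loosen the packing that linker histones bring about. Linker histones close the entry and exit of DNA at the nucleosome. H1f0 encodes H1.0, a linker histone made outside S phase and known from differentiated, non-dividing cells, and H1fx encodes the variant H1X. H2afz and H2afv encode both forms of H2A.Z, a replacement for H2A that is placed at promoters by dedicated exchange complexes. Messages of these genes carry a poly(A) tail, unlike most messages of the histones made in S phase, and can therefore be captured by oligo-dT priming.

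The genes lie on separate chromosomes. In the GRCm38 annotation Hmgb1 is at chr5:149046702-149184489 on the minus strand, Hmgb2 at chr8:57511907-57515999 on the plus strand and Hmgb3 at chrX:71555918-71560676 on the plus strand. Hmgn1 is at chr16:96120618-96127729 and Hmgn2 at chr4:133964738-133968650, both on the minus strand. H1f0 is at chr15:79028450-79030504 on the plus strand and H1fx at chr6:87980421-87981637 on the minus strand. H2afz is at chr3:137864487-137866922 on the plus strand and H2afv at chr11:6427229-6444443 on the minus strand. Hmgb1 overlaps 2 annotated genes on its own strand and H1fx overlaps 1, whereas the other 7 genes overlap none. The last 300 bases of Hmgb1 transcripts were at least 97% identical over at least 91 bases to transcripts of 52 other genes, all of them pseudogenes. The number was 8 for Hmgn2, of which 6 were pseudogenes, and for the other genes, all with pseudogenes, 4 for Hmgb2, 2 for Hmgn1, and 1 each for Hmgb3 and H2afz, and none were found for H1f0, H1fx and H2afv. Of these near copies only Gm10282 and Gm7125, both of Hmgn2, had a row in the count table, with a summed level of at most 2.86 CPM in non-cycling astroglia-like cells. How reads shared with such copies were counted is not given in the sources used here, so the levels of Hmgb1 and Hmgn2 carry that uncertainty in every library.

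Promoters were taken from RefSeq (GRCm38.p6), in which all 9 genes had an entry, H2afz as H2az1, H2afv as H2az2 and H1fx as H1f10. The 250 bases before the start site were searched on both strands for CCAAT, the core of the binding site of the factor NF-Y, for TTTGAA, known as the CHR element of cell cycle genes, and for GCGGGAA, a core of E2F sites. Of all 32851 promoters, 33.9% held CCAAT, 16.0% held the CHR letters and 3.82% held the E2F core. CCAAT was present before the start site of Hmgb1, Hmgb2, Hmgb3, Hmgn1, H2afz and H2afv, and the CHR letters before that of Hmgb2, Hmgb3 and H2afv. No match of any of the 3 was present for Hmgn2, H1f0 and H1fx, nor was the E2F core for any of the genes. Hmgb1 had a second listed promoter, which held no match. Shown here are the promoters of Hmgb2 and H2afz, which stood furthest apart between cycling and non-cycling cells, and of H1f0, which stood least apart, with CCAAT and the CHR letters in capitals on either strand. Hmgb2 (chr8:57511593-57511842, plus strand) held 4 matches to CCAAT and 2 to the CHR letters, 1 of which began 30 bases before the start site. H2afz (chr3:137864237-137864486, plus strand) held 2 matches to CCAAT, which began 80 and 23 bases before the start site. H1f0 (chr15:79027962-79028211, plus strand) held none.
Hmgb2: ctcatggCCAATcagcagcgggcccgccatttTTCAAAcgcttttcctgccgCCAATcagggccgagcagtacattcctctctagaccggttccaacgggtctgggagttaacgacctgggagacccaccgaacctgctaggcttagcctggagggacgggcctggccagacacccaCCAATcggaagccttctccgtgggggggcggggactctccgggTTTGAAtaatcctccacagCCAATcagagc
H2afz: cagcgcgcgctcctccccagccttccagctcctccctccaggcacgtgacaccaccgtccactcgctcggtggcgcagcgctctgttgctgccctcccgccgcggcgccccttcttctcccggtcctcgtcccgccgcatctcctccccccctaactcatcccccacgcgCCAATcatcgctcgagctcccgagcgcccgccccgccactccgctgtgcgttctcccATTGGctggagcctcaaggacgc
H1f0: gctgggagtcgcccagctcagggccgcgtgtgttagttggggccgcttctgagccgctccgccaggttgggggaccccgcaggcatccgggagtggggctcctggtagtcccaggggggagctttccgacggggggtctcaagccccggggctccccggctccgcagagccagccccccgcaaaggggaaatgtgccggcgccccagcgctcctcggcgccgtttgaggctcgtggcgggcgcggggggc
These 3 were picked by their values. Hmgn2 (2.62 on the log2 scale between cycling and non-cycling cells, next after H2afz at 2.79) and H1fx (1.39) also had no match, so the display is no sign that matches go with the size of that difference. They describe letters only, and binding was not measured.

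The libraries held between 7185335 and 11501049 unique molecular identifiers (UMIs), each of which stands for 1 captured RNA molecule. After filtering, 555 and 723 postnatal and 1120 and 719 3m cells were used from replicates 1 and 2, with medians of 7737.5 to 11644 UMIs per cell. Postnatal replicate 2 and 3m replicate 2 shared 95 barcodes, and the smaller cell of such a barcode held a median of 1.78% of the larger one's UMIs where it lay in 3m replicate 2. In all, 46 such smaller cells were left out, 45 of them from 3m replicate 2. Cells were put into classes by detected marker genes and are called "like" that class. Astroglia-like cells numbered 395 and 556 in the postnatal libraries and 324 and 308 in the 3m libraries, and all 10 astroglial markers were detected in each. Oligodendrocyte-like cells numbered 558 and 294 at 3m but 6 and 0 in the postnatal libraries. A cell was counted as cycling with at least 3 UMIs of 10 cycling genes such as Mki67 and Top2a, and as non-cycling with 0. Levels below are UMIs of the gene scaled to 1000000 UMIs (CPM) of the summed cells of 1 library. The fits also used a scaling factor per library, so fitted folds can differ from ratios of the printed CPM. By age these factors were 1.06 and 1.12 for the postnatal sums and 0.908 and 0.930 for the 3m sums.

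**Figure D1:**
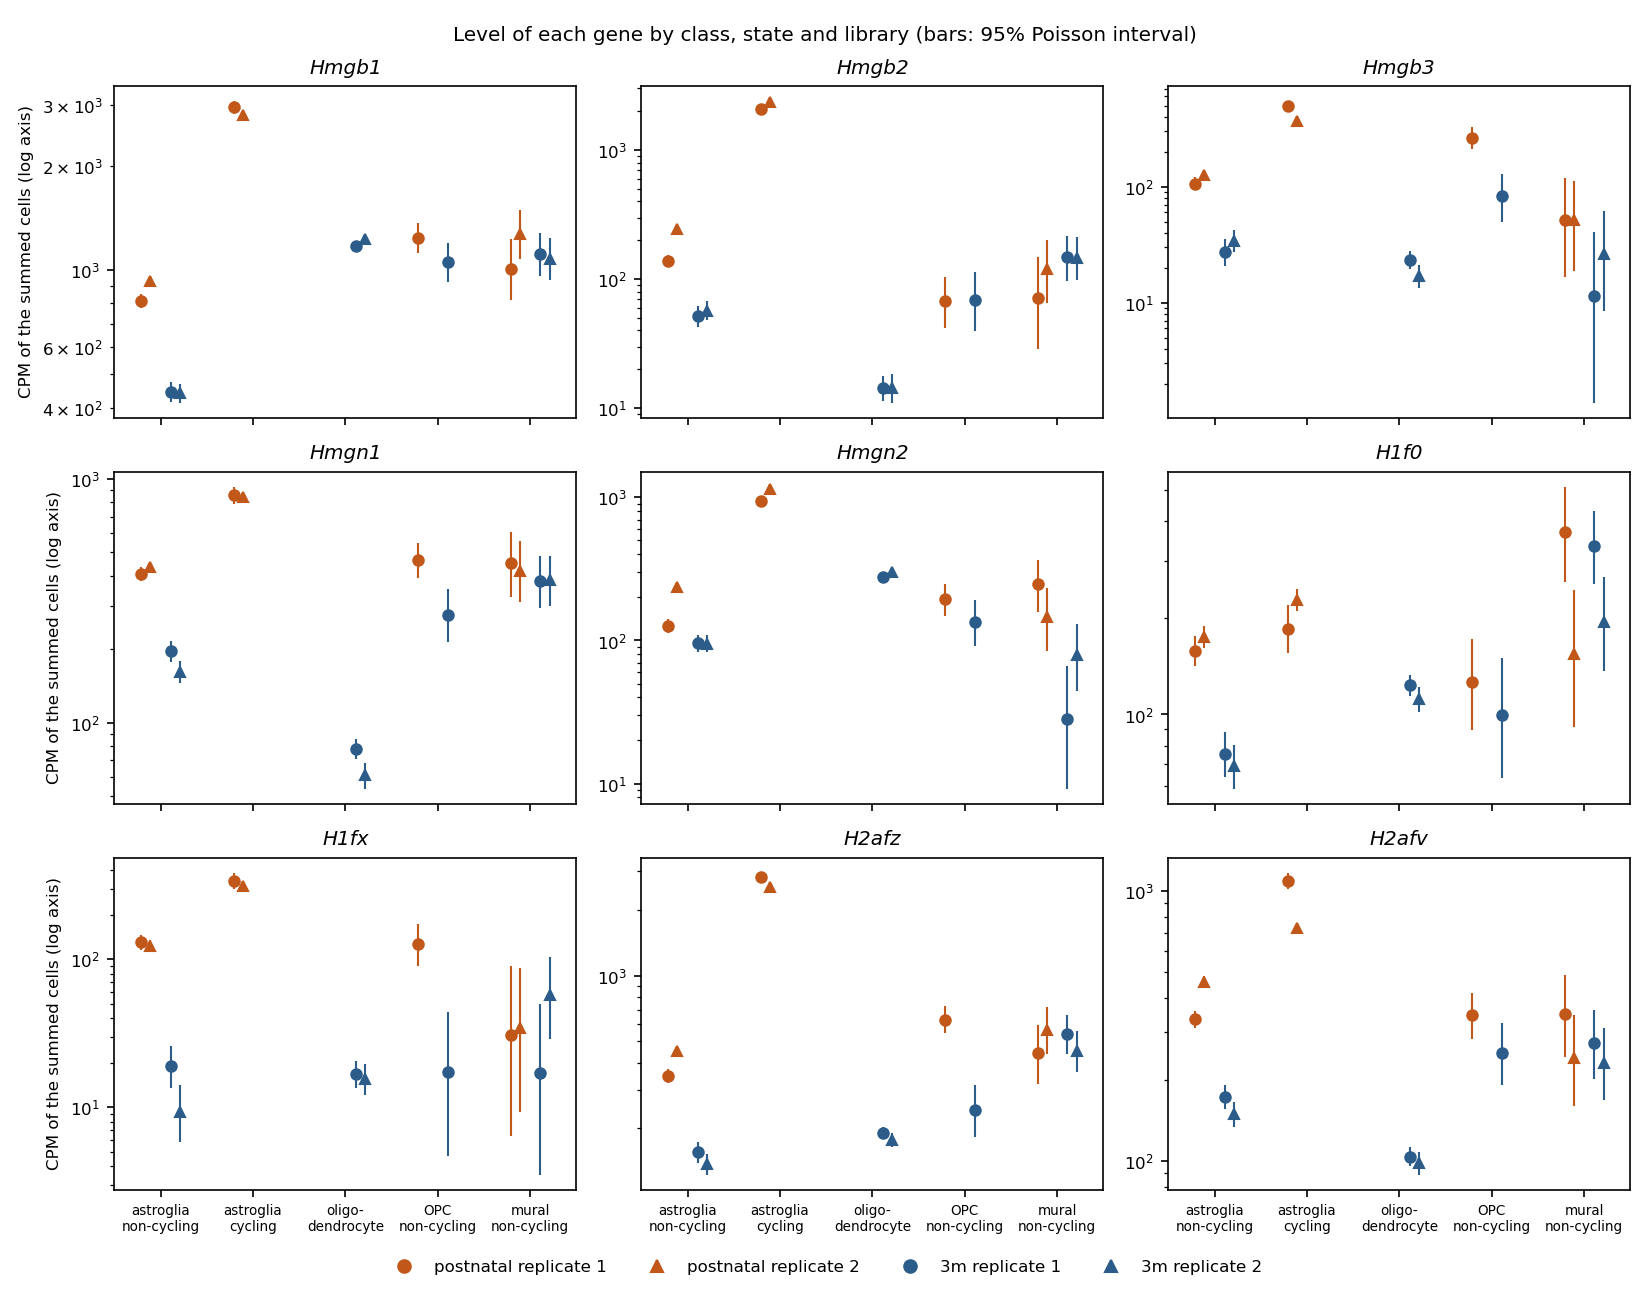
Level of each gene in CPM (log axis, a separate range per gene) for sums of at least 15 cells, with 1 point per library and bars for the 95% Poisson interval of the count. Postnatal points lie above 3m points for all 9 genes in non-cycling astroglia-like cells, as they do for 46.5% of all genes tested. Cycling cells lie above non-cycling cells of the same library, for which the share of all genes is not given here.

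In non-cycling astroglia-like cells the levels of all 9 genes were lower at 3m than in the postnatal libraries, with no overlap between the ages. All 9 passed the filter on low counts in each comparison. A pattern without overlap was common, since 46.5% of the 11055 genes tested were lower at 3m in this way. Hmgb2, Hmgb3, H1fx, H2afz and H2afv also passed the call rule of the fit, an adjusted p of at most 0.05 and at least 1 on the log2 scale, which called 10.3% of all genes lower. The median log2 fold change over the 9 genes was -1.06, beside -0.00197 over all genes tested. Because the genes were chosen on this contrast, nothing is read from these counts.

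The HMG-box genes differed in how far apart the ages were. Hmgb1 stood at 815 and 926 CPM in the postnatal libraries and at 444 and 440 CPM at 3m (log2 fold change -0.73 ± 0.20, SE, n = 2 libraries each). Hmgb1 was thus still well counted at 3m, and the libraries of each age lay close together. Hmgb2 stood at 138 and 243 CPM postnatally and at 51.6 and 57.1 CPM at 3m, at -1.56 ± 0.25 on the log2 scale. The postnatal libraries lay further apart for Hmgb2 than the 3m libraries did, and the value was -1.88 without postnatal replicate 1 and -1.16 without postnatal replicate 2. Hmgb3 stood at 106 and 125 CPM postnatally and at 27.2 and 34.3 CPM at 3m, at -1.66 ± 0.19. Its 3m values lay well below the lower postnatal one.

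Cycling astroglia-like cells held far more of the HMG-box messages. In the 36 and 87 cycling cells of the postnatal libraries Hmgb2 reached 2069 and 2339 CPM, a log2 fold change of 3.61 ± 0.20 over the non-cycling cells of the same libraries, which is the highest among the 9 genes. Hmgb3 reached 493 and 370 CPM, at 1.91 ± 0.18 on the log2 scale. Hmgb1 reached 2945 and 2804 CPM, at 1.76 ± 0.18. Both libraries were higher in cycling than in non-cycling cells for each of the 3 genes. Markers of cell type differed between these cells as well. The 10 astroglial markers summed to 9901 and 8046 CPM in non-cycling and to 4395 and 2837 CPM in cycling cells, the oligodendrocyte markers to 284 and 151 CPM and to 149.5 and 74.7 CPM, and the ependymal markers to 70.5 and 68.5 CPM and to 159 and 44.1 CPM. Their part in the differences by cycling state was not tested. The few cycling astroglia-like cells at 3m, 7 and 4 in number, held 1888 and 4728 CPM of Hmgb2 and 2768 and 4202 CPM of Hmgb1. These sums rest on so few cells that no comparison by age was made in cycling cells, but Hmgb2 lay above every non-cycling sum of astroglia-like cells in both. The class of these 3m cycling cells is less sure. Their astroglial markers summed to 2111 and 1169 CPM, beside 20680 and 21320 CPM in non-cycling 3m cells. Their ependymal markers summed to 1731 and 0 CPM and their neuronal markers to 55.5 and 314 CPM.

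Cycling cells accounted for most of the Hmgb2 message of postnatal astroglia. They were 9.11% and 15.7% of the astroglia-like cells and held 17.4% and 33.2% of all their UMIs, yet they held 73.3% and 81.8% of their Hmgb2 UMIs. At 3m, 2.16% and 1.30% of the astroglia-like cells held 58.1% and 80.6% of the Hmgb2 UMIs. These are the few cycling cells with low astroglial markers, so their shares at 3m may not describe astroglia. For Hmgb1 the shares in cycling cells were 41.8% and 58.4% in the postnatal libraries. The values for H2afz were 61.7% and 72.9%, and those for H1f0, at 21.0% and 39.2%, lay little above the share of all UMIs.

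Among the classes at 3m, Hmgb1 and Hmgb2 were placed differently. Oligodendrocyte-like cells, the myelin-forming glia, held 1169 and 1227 CPM of Hmgb1, above the non-cycling astroglia-like cells, with a log2 fold change of 1.42 ± 0.09. Hmgb2 stood at 14.3 and 14.4 CPM in the oligodendrocyte-like cells, with a log2 fold change of -1.94 ± 0.17. The pair was thus split, with Hmgb1 higher and Hmgb2 lower in oligodendrocyte-like than in astroglia-like cells in both libraries. Hmgb3 stood at 23.3 and 17.0 CPM, at -0.63 ± 0.19, which became -0.93 when 3m replicate 1 was left out and -0.12 when 3m replicate 2 was. Over the 4 classes with at least 20 non-cycling cells in both 3m libraries, Hmgb1 was highest in oligodendrocyte-like cells (1207 ± 26.9 CPM, SD, n = 2), followed by mural-like cells (1095 ± 25.5) and endothelial-like cells (1075 ± 87.7), whose ranges overlapped, and lowest in astroglia-like cells (442 ± 2.83). The endothelial-like cells at 3m had 3 haemoglobin genes at the head of their 10 leading genes, which also held 5 endothelial markers. In all endothelial-like cells at 3m the endothelial markers summed to 16950 and 20300 CPM. Erythroid markers summed to 38450 and 28130 CPM there and mural markers to 9540 and 9970 CPM. Every rank of this class carries that limit. Hmgb2 was highest in mural-like cells (147 ± 0.50 CPM), followed by endothelial-like (127 ± 5.09), astroglia-like (54.3 ± 3.90) and oligodendrocyte-like cells (12.9 ± 1.03), with no overlap between neighbours. Hmgb3 was lower in oligodendrocyte-like (20.8 ± 5.18 CPM) than in astroglia-like cells (30.7 ± 4.96 CPM), and it was not ranked in endothelial-like and mural-like cells, where it rests on 2 to 8 UMIs per library.

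The age difference of Hmgb1 was not seen in every class. Mural-like cells, the contractile cells of the vessel wall, held 1006 and 1270 CPM of Hmgb1 in the 15 and 15 non-cycling postnatal cells and 1113 and 1077 CPM in the 55 and 40 cells at 3m, so the ages overlapped. Hmgb2 was even lower in the postnatal mural-like cells, at 71.9 and 120 CPM beside 148 and 147 CPM, but the postnatal values rest on 7 and 14 UMIs. Hmgb3 was counted with only 2 to 6 UMIs per library there, too few to compare. In oligodendrocyte precursor-like cells, with at least 20 cells in 1 library per age, Hmgb1 was 1237 CPM (95% Poisson interval 1116 to 1367) in 38 postnatal cells and 1053 CPM (925 to 1194) in 36 cells at 3m. Hmgb2 stood at 67.8 and 69.3 CPM and Hmgb3 at 265 and 82.3 CPM. With 1 library per age there is no replicate check, and these intervals cover counting error only. Whether the age difference itself differed between classes was not tested.

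**Figure D2:**
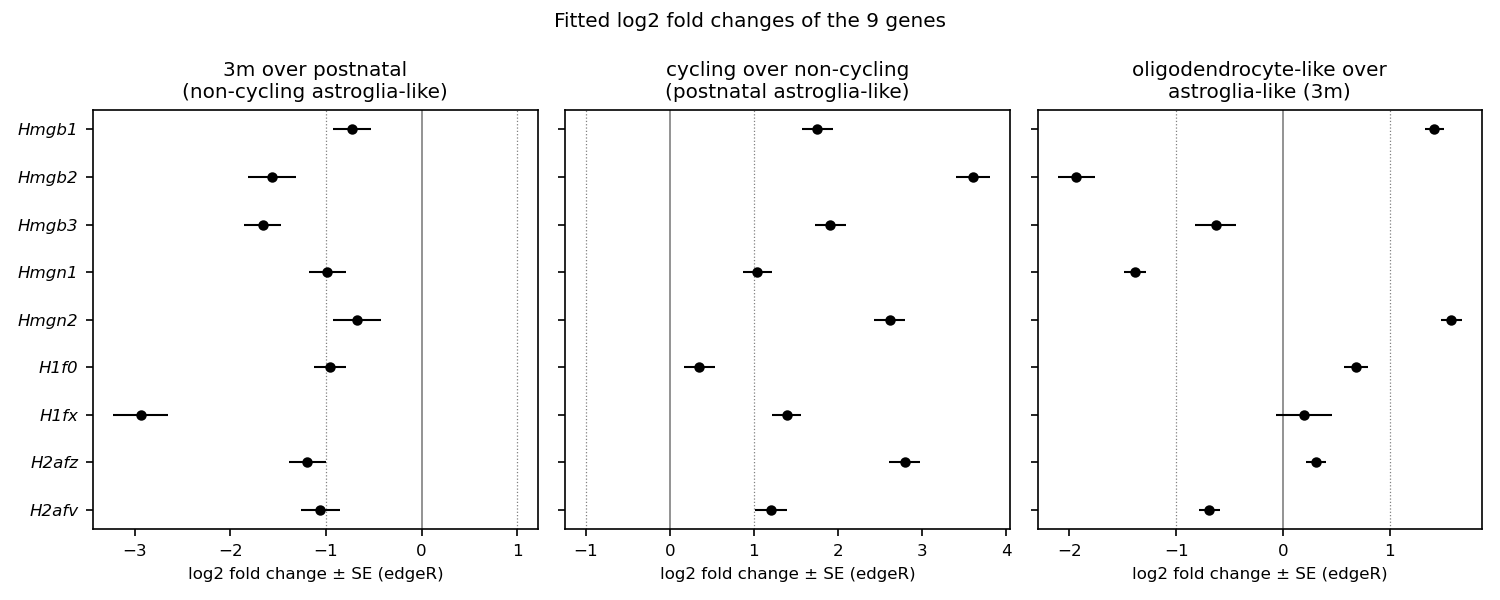
Fitted log2 fold changes of the 9 genes (points, with bars for the standard error) by age, by cycling state and between oligodendrocyte-like and astroglia-like cells, where the dotted lines mark a change of 1 on the log2 scale in either direction. All 9 lie below 0 by age and above 0 by cycling state, H1fx is furthest from 0 by age (-2.94), Hmgb2 by cycling state (3.61), and the genes lie on both sides of 0 between the classes.

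The HMGN genes followed different patterns. Hmgn1 stood at 407 and 434 CPM in postnatal non-cycling astroglia-like cells and at 197 and 162 CPM at 3m, at -0.985 ± 0.19 on the log2 scale. Each 3m value lay below both postnatal values. Hmgn2 stood at 126 and 235 CPM postnatally and at 95.3 and 95.1 CPM at 3m. Its log2 fold change was -0.68 ± 0.25, the smallest age difference of the 9 genes with all libraries. Postnatal replicate 1 lay nearer to the 3m libraries than to postnatal replicate 2 for Hmgn2, and the log2 fold change was -1.03 without postnatal replicate 1 and -0.22 without postnatal replicate 2. The size of the Hmgn2 difference therefore rests on which postnatal library is used. Its rank does too, since without postnatal replicate 1 Hmgb1 (-0.789), H1f0 (-0.997) and Hmgn1 (-1.002) differed less.

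By cycling state Hmgn2 differed more than Hmgn1, the reverse of their order by age with all libraries. Without postnatal replicate 1 that age order turned, at -1.026 for Hmgn2 and -1.002 for Hmgn1. Hmgn2 reached 951 and 1141 CPM in cycling postnatal astroglia-like cells, with a log2 fold change of 2.62 ± 0.19 over non-cycling cells. Hmgn1 reached 855 and 838 CPM, at 1.04 ± 0.17, near the limit of the call rule. In oligodendrocyte-like cells at 3m the HMGN genes lay on opposite sides of the astroglia-like cells. Hmgn2 stood at 276 and 300 CPM, with a log2 fold change of 1.58 ± 0.10, and Hmgn1 at 77.9 and 60.8 CPM, at -1.39 ± 0.10. Both 3m libraries showed each direction. In the order of classes Hmgn1 was highest in mural-like cells (382 ± 1.98 CPM), then endothelial-like (360 ± 2.83), astroglia-like (179 ± 24.8) and oligodendrocyte-like cells (69.6 ± 10.7). The mural-like Poisson intervals (295 to 483 and 301 to 482 CPM) overlapped the endothelial-like ones (305 to 417 and 299 to 435 CPM), so their order was not resolved. Hmgn2 was highest in oligodendrocyte-like cells (287 ± 16.0 CPM), then astroglia-like cells (95.2 ± 0.14), and lowest in endothelial-like (65.2 ± 2.11) and mural-like cells (53.6 ± 35.6), which overlapped. In mural-like cells Hmgn1 was similar at both ages, at 452 and 421 CPM postnatally and 381 and 383 CPM at 3m, whereas Hmgn2 stood at 246 and 146 CPM postnatally and at 28.4 and 78.8 CPM at 3m. Mural-like Hmgn2 thus lay higher in both postnatal libraries, on 24 and 17 UMIs beside 5 and 15. The precursor-like cells of postnatal replicate 1 held 465 CPM of Hmgn1 and 194 CPM of Hmgn2, and those of 3m replicate 1 held 277 and 134 CPM.

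Of the linker histone genes, H1fx differed most by age and H1f0 least by cycling state among the 9 genes. H1fx stood at 130 and 124 CPM in postnatal non-cycling astroglia-like cells and at 19.0 and 9.30 CPM at 3m. In the scaled fit H1fx was 7.66-fold lower at 3m (-2.94 ± 0.28 on the log2 scale), the largest age difference of the 9 genes. Its 3m libraries lay apart, and the value was -3.54 when 3m replicate 1 was left out and -2.47 when 3m replicate 2 was. H1f0 stood at 158 and 174 CPM postnatally and at 75.4 and 68.9 CPM at 3m, at -0.96 ± 0.17. H1f0, although known from differentiated cells, was thus the higher in the younger libraries. In cycling postnatal astroglia-like cells H1fx reached 338 and 312 CPM, with a log2 fold change of 1.39 ± 0.18. H1f0 stood at 185 and 228 CPM there, at 0.35 ± 0.18, and was the 1 gene of the 9 that did not pass the call rule by cycling state.

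Between the classes at 3m the linker histone genes also differed. H1f0 was 123 and 112 CPM in oligodendrocyte-like cells, above the astroglia-like cells in both libraries, with a log2 fold change of 0.68 ± 0.11. H1fx was 16.8 and 15.6 CPM, within the range of the astroglia-like cells, at 0.20 ± 0.26, and its sign turned in 1 of 10 alternatives (-0.07 on the log2 scale without 3m replicate 2, and 0.77 without 3m replicate 1). By class H1f0 was highest in mural-like (265 ± 99.6 CPM) and endothelial-like cells (222 ± 59.0), which overlapped, followed by oligodendrocyte-like (117 ± 5.87) and astroglia-like cells (72.2 ± 4.58). H1fx was low in all 4 classes, at 37.4 ± 28.8 CPM in mural-like cells and at 12.9 to 15.4 CPM on average in the others. The astroglia-like range (9.30 to 19.0 CPM) overlapped those of the other 3 classes, while the mural-like, oligodendrocyte-like and endothelial-like ranges, which rest on few UMIs in mural-like and endothelial-like cells, did not overlap each other. In mural-like cells H1fx was counted with 3 and 4 UMIs postnatally and 3 and 11 UMIs at 3m, which shows no age order, and H1f0 stood at 370 and 155 CPM postnatally and 335 and 194 CPM at 3m. In the precursor-like cells H1fx was 126 CPM (89.6 to 172) in postnatal replicate 1 and 17.3 CPM (4.72 to 44.4) in 3m replicate 1, on 39 and 4 UMIs, and H1f0 was 126 and 99.7 CPM.

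The H2A.Z genes were alike by age and unlike by cycling state. H2afz stood at 348 and 450 CPM in postnatal non-cycling astroglia-like cells and at 156 and 137 CPM at 3m, at -1.20 ± 0.19 on the log2 scale. H2afv stood at 335 and 462 CPM and at 173 and 149 CPM, at -1.06 ± 0.20. Both were close to the limit of the call rule, and calls depended on single libraries. H2afv was not called without postnatal replicate 2 (-0.88) or without 3m replicate 2 (-0.93), and H2afz was not called without 3m replicate 2 (-1.08). In cycling cells H2afz reached 2827 and 2552 CPM, with a log2 fold change of 2.79 ± 0.19, whereas H2afv reached 1088 and 730 CPM, at 1.20 ± 0.19. Leaving out 1 postnatal library at a time moved H2afv between 0.76 and 1.61 on the log2 scale, so its size by cycling state differed between the libraries.

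In oligodendrocyte-like cells H2afz was 191 and 177 CPM, at 0.31 ± 0.09 on the log2 scale over astroglia-like cells, and H2afv was 104 and 98.0 CPM, at -0.69 ± 0.10. The H2A.Z genes thus lay on opposite sides of the astroglia-like cells, each by less than 1 on the log2 scale. By class H2afz was highest in mural-like cells (496 ± 62.2 CPM), followed by endothelial-like (325 ± 6.22), oligodendrocyte-like (186 ± 8.20) and astroglia-like cells (147 ± 12.9), with no overlap between the library values of neighbours. The mural-like Poisson intervals (437 to 660 and 361 to 558 CPM) overlapped the endothelial-like ones (279 to 387 and 261 to 390 CPM) in part. H2afv was highest in endothelial-like (291 ± 69.4 CPM) and mural-like cells (252 ± 29.4), which overlapped, followed by astroglia-like (161 ± 16.9) and oligodendrocyte-like cells (98.9 ± 6.28). In mural-like cells H2afz was 441 and 566 CPM postnatally and 540 and 452 CPM at 3m, so the ages overlapped. The precursor-like cells held 630 CPM of H2afz (545 to 725) in postnatal replicate 1 and 243 CPM (183 to 315) in 3m replicate 1, and H2afv stood at 346 and 251 CPM there.

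By cycling state 8 of the 9 genes were called higher and 1 was not, where 9.39% of the 11188 genes tested were called higher. In oligodendrocyte-like cells Hmgb1 and Hmgn2 were called higher, where 18.2% of the 11627 genes tested were, and Hmgb2 and Hmgn1 were called lower, where 26.7% were. These comparisons share libraries with the age comparison, the cycling one its non-cycling postnatal cells and the class one its 3m astroglia-like cells.

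The levels were also read by the number of cycling UMIs in a cell. Hmgb2 stood at 138 CPM in cells of postnatal replicate 1 with 0 cycling UMIs, at 197 CPM with 1 to 2, at 331 CPM with 3 to 9 and at 2425 CPM with 10 or more, and at 243, 289, 409 and 2756 CPM in postnatal replicate 2. H2afz stood at 348, 408, 936 and 3215 CPM and at 450, 514, 847 and 2921 CPM over the same steps. Both genes had their steepest step from 3 to 9 to 10 or more UMIs, while Hmgb1 moved more evenly, at 815, 944, 1759 and 3188 CPM and at 926, 1123, 1642 and 3055 CPM. H1f0 had its lowest value at 3 to 9 cycling UMIs in both libraries (64.6 and 99.7 CPM) and its highest at 10 or more (210 and 256 CPM). H1fx was also lowest at 3 to 9 in postnatal replicate 1 (105 CPM), but not in postnatal replicate 2 (145 CPM). The step of 3 to 9 UMIs held only 7 and 23 cells, and cells with more cycling UMIs were deeper, with medians of 19010 and 32268 UMIs at 10 or more beside 7396 and 10744 at 0.

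**Figure D3:**
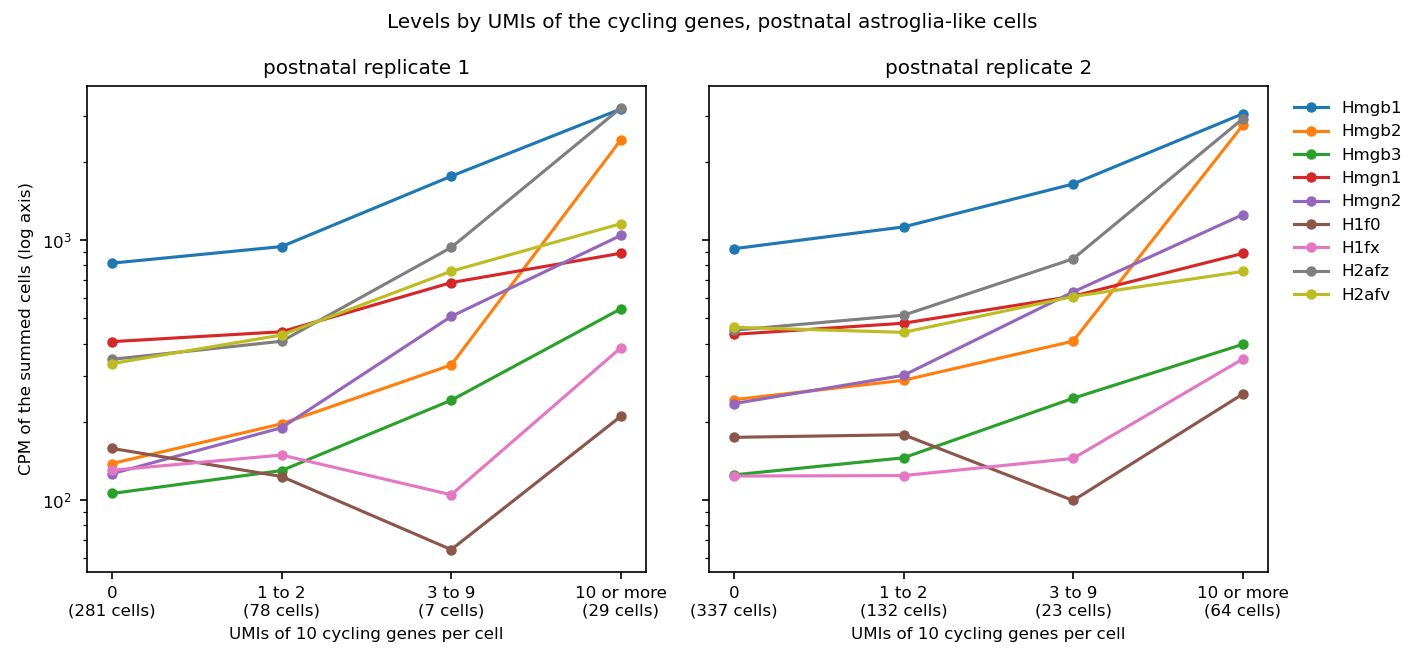
Level of each gene in CPM (log axis) in postnatal astroglia-like cells grouped by their UMIs of the 10 cycling genes, with the number of cells under each step, 1 panel per library and 1 line per gene. Hmgb2 goes from 331 to 2425 CPM and from 409 to 2756 CPM over the last step, while H1f0 dips at 3 to 9 UMIs.

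Other cycling messages were counted in the cells with 0 cycling UMIs as well. The summed level of 14 further cycling genes not used for the gate, such as Pcna and Mcm2, was 69.1 and 116 CPM in the non-cycling postnatal cells and 32.6 and 47.8 CPM at 3m, beside 1897 and 2278 CPM in the cycling postnatal cells. Postnatal replicate 2 was the highest of the 4 libraries, as it was for 8 of the 9 genes, all but H1fx. When only cells of at least 5000 UMIs with none of these UMIs either were kept, 79, 94, 137 and 128 cells remained, and the log2 fold changes were -1.51 for Hmgb2, -1.62 for Hmgb3, -3.15 for H1fx, -1.11 for H2afz, -1.14 for H2afv and -0.54 for Hmgn2. The same 5 genes were called. This restriction was chosen after seeing the data and changed the gate and the depth of the cells together, and the part of cycling messages in the age differences was not tested.

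Markers of several other cell types also differed between the ages in the non-cycling astroglia-like cells. The 9 oligodendrocyte markers summed to 284 and 151 CPM in the postnatal libraries, with 5 and 7 markers detected, and to 498 and 515 CPM at 3m, with all 9 detected. The 5 ependymal markers summed to 70.5 and 68.5 CPM postnatally and 304 and 408 CPM at 3m, mostly Rarres2. Ccdc153 and Tmem212 were at 0 in the postnatal cells and each had a UMI in 3 of 293 and 4 of 277 cells at 3m. Foxj1, the factor of ciliated cells, had a UMI in more postnatal cells, 19 of 281 and 64 of 337, than 3m cells, 6 and 5, and its levels overlapped between the ages (14.5 and 29.6 CPM beside 11.7 and 22.8 CPM). Tekt4 stood at 3.96 and 3.11 CPM postnatally and at 5.84 and 14.4 CPM at 3m. The 8 microglial markers summed to 0 and 0.26 CPM postnatally, with 0 and 1 detected, and to 178 and 7.19 CPM at 3m, with 8 and 3 detected, so that 3m replicate 1 stood apart. The endothelial markers (24.2 and 24.1 CPM beside 10.7 and 13.1 CPM) and the oligodendrocyte precursor markers (41.8 and 25.7 CPM beside 17.5 and 18.2 CPM) were higher in the postnatal libraries. The ages overlapped for the mural markers (132 and 204 CPM beside 356 and 182 CPM) and for the neuronal and erythroid ones, which summed to at most 19.8 CPM. The 10 astroglial markers themselves summed to 9901 and 8046 CPM postnatally and 20680 and 21320 CPM at 3m. Leaving out every astroglia-like cell with an oligodendrocyte marker UMI kept the sign of all 9 genes, at -0.83 for Hmgb1, -1.85 for Hmgb2, -1.23 for Hmgb3, -0.94 for Hmgn1, -0.62 for Hmgn2, -0.67 for H1f0, -2.85 for H1fx, -0.90 for H2afz and -0.80 for H2afv. Only 4051 genes could then be tested, and Hmgb3, H2afz and H2afv were no longer called. The part of these markers in the other values was not tested.

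Other genes of the same machinery were grouped in lists, which were chosen with results of these data known. Of all genes tested, 10.3% were called lower and 13.9% higher by age, 9.39% higher by cycling state, and 18.2% higher and 26.7% lower in oligodendrocyte-like cells. Of the 5 replication-coupled linker histone genes, 4 were tested by age in non-cycling astroglia-like cells, and Hist1h1b and Hist1h1d were called lower at 3m. Hist1h1b stood at 15.0 and 19.0 CPM postnatally and at 1.46 and 0.42 CPM at 3m, and Hist1h1d at 7.92 and 8.56 CPM and at 0.49 and 1.27 CPM, 3m levels of so few UMIs that no fold is given. Hist1h1c went the other way, from 15.4 and 19.0 CPM to 70.5 and 88.4 CPM, and was called higher, with a log2 fold change of 2.44 ± 0.21. It is named for the highest fold in a list chosen on these data, so no p is given. Over the 4 tested the median log2 fold change was -1.79, a value that depends on these low levels, beside -0.00197 over all genes. Hist1h1c was thus higher at 3m, where H1fx and H1f0 were lower. By cycling state all 5 were called higher (median 3.30, beside -0.03 over all genes), led by Hist1h1b (5.31 ± 0.22), which stood at 15.0 and 19.0 CPM in non-cycling and 584 and 721 CPM in cycling cells. Hist1h1a, at 1.76 and 2.08 CPM in non-cycling and 42.5 and 54.2 CPM in cycling cells, passed the filter through the cycling cells. Nothing is therefore read from this count or median. In oligodendrocyte-like cells 1 of 2 tested was lower than in astroglia-like cells, Hist1h1c at -1.04 ± 0.13.

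Of 61 rows of replication-coupled core histones, 21 were tested by age, of which 9 were called higher and 2 lower at 3m, with a median log2 fold change of 1.19, where 13.9% of all genes were called higher. DESeq2 called 6 of the rows in all. Hist1h4i (2.73 ± 0.29) was higher, as was Hist2h4, which stood at 1.32 and 0.26 CPM postnatally and at 9.73 and 11.4 CPM at 3m. Hist1h3e (-2.48 ± 0.37) was lower, as was Hist3h2ba, at 11.01 and 19.98 CPM postnatally and 0.97 and 2.96 CPM at 3m. Rows such as Hist2h4 passed the filter on low counts through 1 age alone, so nothing is read from the balance of directions. By cycling state 38 of 43 tested were called higher and none lower, with a median of 3.67, and DESeq2 called 30 in all. Rows near 0 in non-cycling cells passed the filter through the cycling cells alone, so nothing is read from this count or median. Hist1h3c stood at 0 and 1.04 CPM in non-cycling and at 151 and 306 CPM in cycling cells, and Hist1h3b was listed at 0 in both non-cycling sums and at 4.12 and 13.6 CPM in the cycling ones. Between the classes at 3m, 10 of 21 were called lower and 1 higher in oligodendrocyte-like cells (median -1.01, beside -0.02 over all genes), of which DESeq2 called 2 in all, with Hist1h4i at 58.4 and 41.0 CPM in astroglia-like and 1.81 and 2.55 CPM in oligodendrocyte-like cells, Hist2h2be at 6.81 and 5.07 CPM and at 0.54 and 0.23 CPM, and Hist3h2ba at 0.97 and 2.96 CPM and at 56.9 and 73.4 CPM. Rows such as Hist2h2be passed the filter through 1 class alone, so nothing is read from the balance between the classes either. Copies of the core histone genes are nearly identical, and reads shared between them may be split or lost in these counts. Most of these messages also lack the poly(A) tail by which they would be captured.

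Of 7 other histone variants, 6 were tested by age and 4 were called lower at 3m (10.3% of all genes) and none higher, with a median log2 fold change of -1.18. H2afy2, a macroH2A gene, fell by 2.32 ± 0.38 and H3f3b, 1 of the genes of H3.3, fell by 1.37 ± 0.21 on the log2 scale, from 1240 and 1212 CPM to 426 and 373 CPM. By cycling state 3 of 7 were called higher (9.39% of all genes, median 0.50 for the list), led by the centromeric variant gene Cenpa (5.89 ± 0.25) and by H2afx (3.39 ± 0.20). In oligodendrocyte-like cells 2 of 7 were higher (18.2% of all genes, median 0.53 for the list), H3f3b (1.54 ± 0.09) and H2afj (1.44 ± 0.09).

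Of 8 other HMG genes, 6 were tested by age and 0 were called by edgeR or DESeq2, with 3 at an unadjusted p under 0.05 in edgeR and a median log2 fold change of -0.42. Hmgn5 was the 1 called gene of 7 by cycling state (1.58 ± 0.19, median of the list 0.33). In oligodendrocyte-like cells (median -0.14) Hmgxb4 was higher (1.12 ± 0.20) and Hmgn3 lower (-1.92 ± 0.10), from 263 and 249 CPM in astroglia-like cells to 70.8 and 66.0 CPM. Hmgn3 thus lay on the same side as Hmgn1 and on the opposite side from Hmgn2.

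Of 11 genes of H2A.Z exchange, all were tested and 2 were called lower by age, near the 10.3% of all genes, and none higher (median -0.45). Yeats4, a subunit of the complexes that deposit H2A.Z, fell by 1.84 ± 0.20 and Anp32e, which removes H2A.Z, fell by 1.35 ± 0.17 on the log2 scale. By cycling state Anp32e (1.45 ± 0.18) and Ruvbl2 (1.22 ± 0.21) were the 2 called higher, near the 9.39% of all genes (median 0.57). Between the classes 0 of the 11 were called by edgeR or DESeq2, with 6 at an unadjusted p under 0.05 in edgeR and a median log2 fold change of 0.41. Of 15 histone chaperones, 12 were tested by age and 5 were called lower (10.3% of all genes, median -0.94 for the list), led by Nap1l1 (-1.52 ± 0.19) and Nasp (-1.46 ± 0.29), and 12 of 15 were called higher by cycling state (9.39% of all genes, median 1.51 for the list), among them Asf1b, at 0 and 0.26 CPM in non-cycling and 24.7 and 23.6 CPM in cycling cells, and Chaf1b, at 1.32 and 0.78 CPM and at 59.0 and 33.4 CPM, both of which passed the filter through the cycling cells. In oligodendrocyte-like cells 6 of 12 were called higher (18.2% of all genes) and none lower (median 0.97), led by Ptma (2.55 ± 0.10), from 636 and 512 CPM to 3484 and 3309 CPM, and Anp32b (1.98 ± 0.11).

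The share of cells with a UMI was compared after each cell was thinned to 2000 UMIs, with shallower cells left out (65 and 34 postnatal and 28 and 37 3m non-cycling astroglia-like cells). Hmgb1 was detected in 74.1% and 77.6% of postnatal and in 51.7% and 46.3% of 3m non-cycling astroglia-like cells. The size of a share depends on the depth chosen: for Hmgb1 they were 54.7%, 56.5%, 33.2% and 29.0% at 1000 UMIs, 90.5%, 92.2%, 71.2% and 66.0% at 4000 UMIs, and 82.6%, 92.3%, 77.5% and 77.3% unthinned. H1fx was detected in 19.0% and 20.8% of the postnatal and in 3.02% and 2.08% of the 3m cells (unthinned 43.8%, 60.2%, 10.2% and 7.58%). Hmgb2 was detected in 19.4% and 41.9% and in 11.7% and 8.75% (unthinned 53.7%, 78.0%, 27.3% and 27.8%). In cycling postnatal cells these shares were 97.1% and 97.7% for Hmgb1, 42.9% and 49.4% for H1fx, and 85.7% and 81.6% for Hmgb2. H1f0 was detected in 22.9% and 29.9% of the cycling and in 25.5% and 29.7% of the non-cycling postnatal cells, which shows no order. No class is known to lack these genes, so the share that RNA from outside a cell would give was not measured. In oligodendrocyte-like cells Hmgb2 was detected in 2.73% and 3.45%, Hmgb3 in 4.00% and 1.72% and H1fx in 2.73% and 2.41%. In the same oligodendrocyte-like cells Hmgb1 was detected in 87.3% and 88.6%, Hmgn2 in 40.7% and 41.7%, and Hmgn1 in 16.0% and 11.4%.

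**Figure D4:**
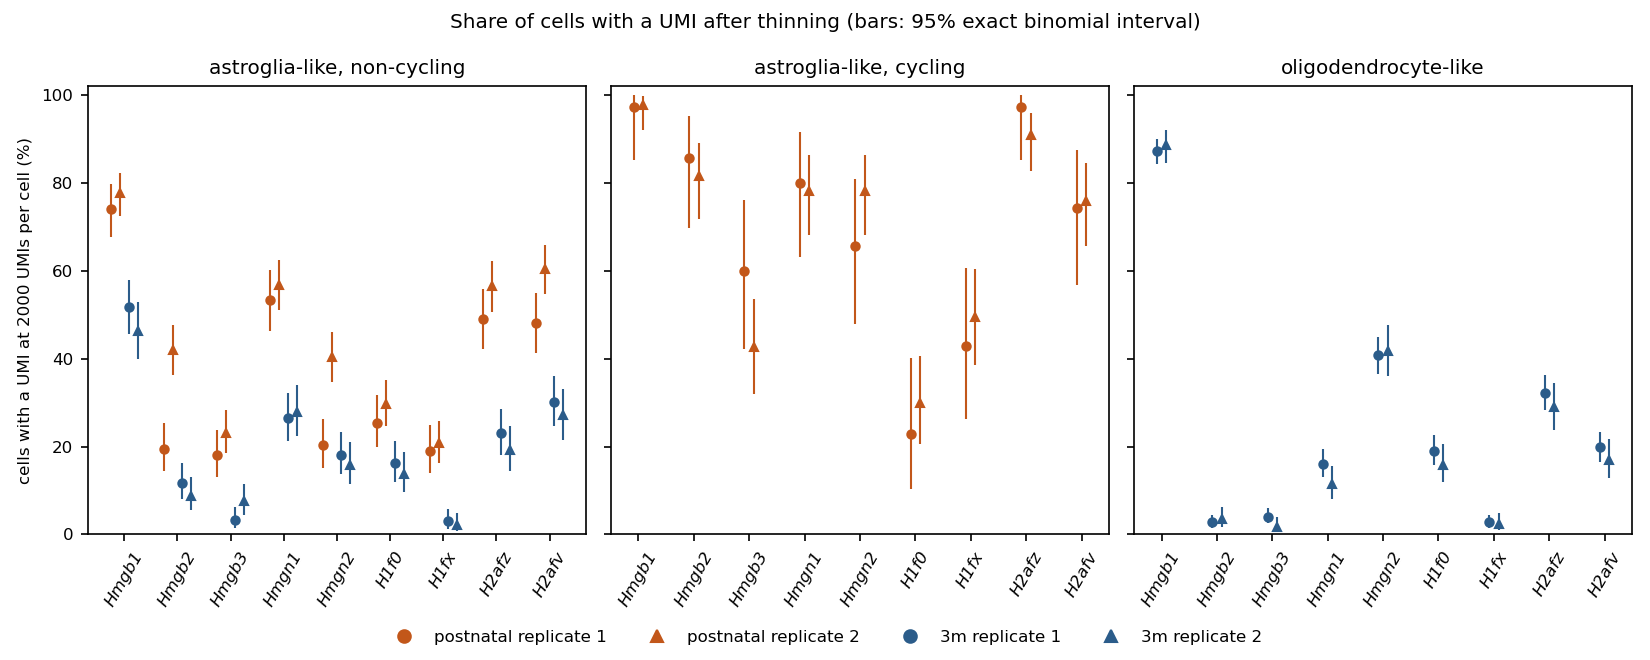
Share of cells with a UMI of each gene (%) after thinning to 2000 UMIs per cell, with 1 point per library and bars for the 95% exact binomial interval. Hmgb1 is detected in 87.3% and 88.6% of oligodendrocyte-like cells, where Hmgb2 is low at 2.73% and 3.45%, and H2afz is detected in 49.1% and 56.4% of non-cycling and in 97.1% and 90.8% of cycling postnatal cells.

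Likeness between genes was described over 14 sums of at least 20 cells by class, state and library, on log2(CPM + 10), among 3802 genes with a mean of at least 50 CPM or in the set. These sums share libraries and include both cycling sums, so the correlations describe them and carry no test. Hmgb2 was most like Snrpe (Pearson r = 0.94) and H2afv (0.94), and H2afv was most like Snrpe (0.98) and Hmgn1 (0.94). H2afz was most like Ranbp1 (0.98), Npm1 (0.97) and Ran (0.97). Hmgb3 was most like Ezh2 (0.97) and Cbx3 (0.96), Hmgn1 like Cbx5 (0.95) and H1fx like Nudt21 (0.97). Hmgb1 was most like Hnrnpab (0.95) and the chaperone gene Supt16 (0.94), Hmgn2 like Txnl1 (0.92) and H1f0 like Adrm1 (0.95). Among pairs of the 9 genes r was highest for Hmgn1 with H2afv (0.94) and for Hmgb2 with H2afv (0.94), and lowest for Hmgn2 with H1f0 (-0.06) and Hmgb3 with H1f0 (0.06). Hmgn1 and Hmgn2 had an r of only 0.22.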

How the data were processed

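Single cells of the striatum were profiled by droplet RNA sequencing. The 12 deposited samples were runs of 4 libraries, merged in the table, so the library was the replicate (n = 2 per age). The values deposited by the authors are raw, unscaled UMI counts of genes in cells. The submitters' processing notes name mm10, Cell Ranger and Seurat 3.1.1, and the methods of the study may describe other libraries. No column was left unused. Following the study, cells with fewer than 500 genes or more than 10% mitochondrial UMIs were removed, and 3117 cells were used after copies under shared barcodes (under 5% of the larger cell) were left out. A cell took the class with the most detected markers, with at least 3 markers and at least 2 more than any other class. Scrublet (Scanpy 1.11.5) marked 37 of these cells, which were kept. The study's own clusters were not used.

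Counts were summed per library, class and state and fitted with edgeR 4.0.16 (filterByExpr, TMM, quasi-likelihood test), and the thresholds for a call were 0.05 for the p adjusted after Benjamini and Hochberg and 1 for the size of the log2 change. The age fit had no block, and both comparisons within libraries had the library as a block. P-values measure the spread between libraries, which for pools of mice may be partly technical. On simulated counts of the age comparison (11055 genes), 100 of 100 4-fold and 40 of 100 2-fold changes were called. A true 2-fold change lies on the limit of the call rule, so its count does not measure sensitivity. Every gene was drawn with the same spread. All 9 members and all lists were chosen with earlier results of these data known. Of each list, up to 2 called genes with the highest and 2 with the lowest log2 fold change were named. For each member the 5 most similar genes were listed and those most alike are printed. DESeq2 1.42.0 and other gates, filters and scalings were alternatives. Intervals are 95% exact Poisson or binomial and cover counting error only. Near copies were searched with BLAST 2.17.0 in GENCODE vM21 transcripts. Endothelial-like cells were not compared by age, because haemoglobin genes led that class in the postnatal libraries.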

Additional observations from a re-analysis of the deposited data

How the results depend on the processing

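By age in non-cycling astroglia-like cells 2679 of 11055 genes were called. The count was 851 of 4051 without any oligodendrocyte marker UMI, where fewer cells and genes remained, and between 1695 and 3155 when 1 library was left out, the lowest without 3m replicate 2. Without a scaling factor the median of all genes moved by -0.25 on the log2 scale, and 1119 genes were called higher and 1758 lower, beside 1540 and 1139 with it. With the replicate block 2690 were called. The labels share only a number (r = 0.08 between the deviations of same-numbered libraries, 2 pairs), so the block was not used. By cycling state 1928 genes were called, 961 with DESeq2, 3467 by adjusted p alone and 1149 with no replicate block. Between the classes 5224 were called, 3462 with DESeq2 and 8112 by adjusted p alone. The cause of these shifts was not tested. The other 26 of 33 alternative counts stayed within 1.5 times. Of the shares of cells with a UMI, 201 values at another depth (1000 or 4000 UMIs, or unthinned) lay outside the interval of the value at 2000 UMIs and 15 within it. No sign of a gene turned in any alternative except H1fx between the classes. Of the changes in calls by age, Hmgn1 was gained in 6 alternatives, since it lay at the limit. The restriction to cells of at least 5000 UMIs was chosen after seeing the data. Leaving out 1 library gave values only for cycling state and class, with no test. The planned age comparison of endothelial-like cells and its alternatives were not run. Depth limits the values of the smaller classes, where several genes rest on few UMIs.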

Other observations

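Summed over all filtered cells of a library, whatever their class or state, H2afz stood at 998 and 1154 CPM in the postnatal libraries and at 232 and 242 CPM at 3m, and Hmgb2 at 556 and 871 CPM and at 70.0 and 122 CPM. Hmgb1 over all cells was 1377 and 1517 CPM postnatally and 988 and 1000 CPM at 3m. The 200 cells without a class were not used in any class comparison. Microglia-like cells numbered 2 and 16 in the postnatal and 21 and 7 in the 3m libraries. They held 1979 and 1215 CPM of Hmgb1 postnatally and 448 and 610 CPM at 3m.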
